A study of Mus musculus with 16 samples.

Results

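Inflammasomes are protein complexes that assemble in the cytosol of macrophages when a sensor meets a microbial product or a sign of damage. A sensor (Nlrp3, or Nlrc4 together with a Naip protein that has bound bacterial flagellin or a secretion system protein) recruits caspase-1 (Casp1), often through the adaptor ASC (Pycard), and caspase-1 then matures the cytokines IL-1β and IL-18 and cuts gasdermin D (Gsdmd), whose pores cause the lytic death called pyroptosis. Casp4, the mouse gene of caspase-11, acts beside this route by sensing bacterial lipopolysaccharide in the cytosol, and interferons are known to raise its expression.

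The chromatin around 9 of these genes (Nlrp3, Nlrc4, Naip2, Naip5, Pycard, Casp1, Casp4, Gsdmd and Il18) was described from ChIP-seq of H3K27ac, a histone acetylation of active promoters and enhancers, in bone marrow-derived macrophages (BMDMs) of C57Bl6 mice aged 8 to 12 weeks. The cells were left untreated (Control), given IFNγ at 100 ng/mL for 1 h, given the PARP inhibitor PJ34 at 20 µM, or given both agents with PJ34 added 1 h before IFNγ (IFNγ+PJ34). How long PJ34 was given alone is not stated. All cells were grown from marrow in serum and LCCM, and the labels name no allele. There were 2 replicates of each condition, 8 ChIP and 8 input samples in all, but each condition has 1 peak list. The list is deposited with the first ChIP replicate and was taken, from the methods, to hold the peaks called in both replicates, so a difference between conditions has no replicate check and no p-value is given.

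Every H3K27ac peak within 50 kb of an annotated start site of the 9 genes was taken. These were 57 of 43533 peaks in the Control list, 52 of 40708 in IFNγ, 63 of 44090 in PJ34 and 51 of 42960 in IFNγ+PJ34. Peaks of different lists that overlapped by at least 1 bp were merged, which gave 78 regions of the 55218 in the whole series, 43131 of which lay within 50 kb of some protein-coding gene. Each of the 9 genes had a median of 11 regions (range 3 to 18), against a median of 3 (interquartile range 0 to 7) over 21938 protein-coding genes. Casp1 and Casp4 lie side by side and share all 6 of their regions, and Naip2 and Naip5 share 3.

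The level of a region in a list is given as the percentile of its score within that list (100 is the highest), together with the fold enrichment over input, since the scores rise linearly with the −log10 p of the peak caller and their scale differs between lists. The depth of the libraries is unknown, because the files hold no read counts. The Control list covered 52.6 Mb, and the other lists between 42.5 and 47.9 Mb. A region is missing from a list where no peak was called in both replicates, which cannot be told apart from a weak signal at a lower depth. Of the macrophage markers, 8 of 8 had a region at the start site in all 4 lists, while 0 of 4 T cell, 0 of 4 fibroblast and 0 of 4 neutrophil markers did, 1 of 4 B cell markers (Ms4a1, percentiles 10.4 to 55.9) and 1 of 3 erythroid markers (Klf1, 53.0 to 74.5). Those 8 macrophage regions all ranked lower in IFNγ than in Control (median -6.59 percentile points) and in PJ34 than in Control (median -5.12). Of the 8, 5 ranked higher in IFNγ+PJ34 than in IFNγ (median 3.40). At Csf1r, Lyz2, Mertk and Fcgr1, Control and IFNγ+PJ34 were the higher lists, which was not so at Adgre1, Cd68 and Spi1. Over the start-site regions of all genes, 36.6% ranked higher in IFNγ than in Control (median -1.43) and 58.3% in PJ34 than in Control (median 0.736). From IFNγ to IFNγ+PJ34, 40.8% ranked higher (median -1.22). The part of these macrophage regions in the differences described here was not tested.

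A DNA motif known from IFNγ-responsive genes is the gamma-activated site (GAS), here searched as TTCNNNGAA. The sequences that follow are shown because the GAS matches they hold lie in the regions on which the description turns. They are from the plus strand of GRCm38 (mm10), the capitals mark the GAS match, and a match is only a match of letters and was not tested for binding.
Nlrp3, at -1361 bp from the start site, chr11:59540173-59540241: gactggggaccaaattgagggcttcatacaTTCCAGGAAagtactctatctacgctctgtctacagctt
Casp4, at 1596 bp from the start site, inside the gene, chr9:5310411-5310479: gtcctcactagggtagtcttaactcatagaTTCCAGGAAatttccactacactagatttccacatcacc
Casp12, at -52 bp from the start site, chr9:5345344-5345412: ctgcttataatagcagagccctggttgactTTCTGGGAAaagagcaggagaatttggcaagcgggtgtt
Il18, at -401 bp from the first start site, chr9:50554392-50554460: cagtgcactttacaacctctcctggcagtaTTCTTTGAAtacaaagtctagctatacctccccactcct
Gsdmd, at 268 bp from the start site, chr15:75862561-75862629: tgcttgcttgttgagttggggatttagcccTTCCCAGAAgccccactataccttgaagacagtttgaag
Pycard, the 200 bases around the summit of a region upstream of the gene, chr7:127996419-127996618: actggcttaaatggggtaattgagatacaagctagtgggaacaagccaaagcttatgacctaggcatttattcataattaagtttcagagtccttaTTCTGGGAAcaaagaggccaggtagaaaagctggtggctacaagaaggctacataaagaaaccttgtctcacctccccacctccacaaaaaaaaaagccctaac
The first pair, from Nlrp3 and Casp4, carry the same 9 letters.

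All 9 genes had an H3K27ac region at a start site (within 1 kb) in all 4 lists. The plot of start-site percentiles shows the 9 genes side by side. The levels differed widely between genes, from Nlrp3 near the top of every list to Naip5 near the middle. For comparison, 1 region was taken for each protein-coding gene, its highest-ranked within 1 kb of a start site, and a region shared by genes was counted once. The median of these start-site regions was at percentile 85.2 in Control, 84.0 in IFNγ, 86.1 with PJ34 and 81.5 with both agents. Between IFNγ and Control, Nlrp3, Casp1, Casp4 and Il18 ranked higher and the other 5 lower, while 36.6% of the 9430 start-site regions of this set found in both lists ranked higher. With fold enrichment in place of score, the same 4 genes ranked higher in IFNγ. With peak width, 7 of the 9 did, Nlrp3 not among them, beside 55.2% of the same set.

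**Figure D1:**
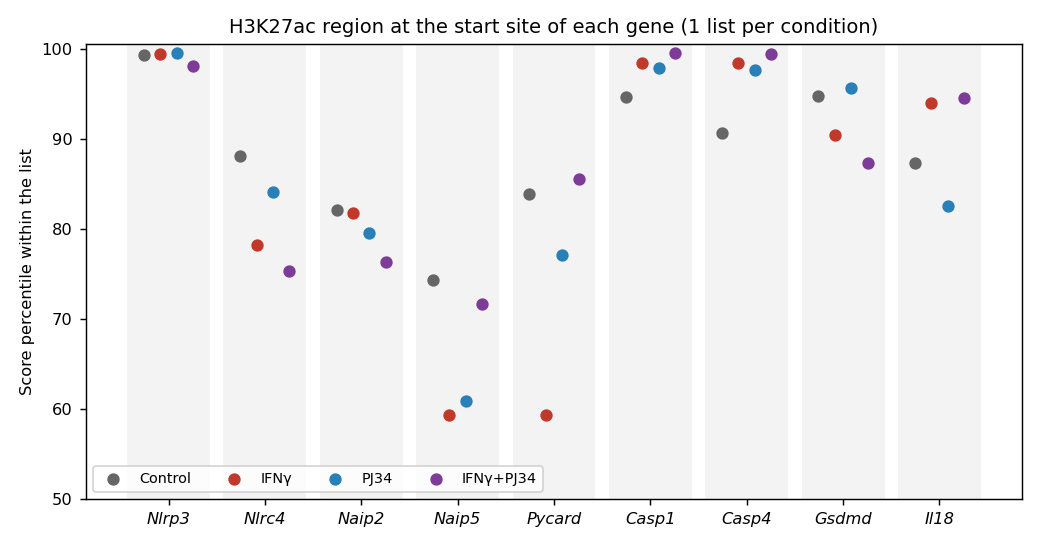
Score percentile (vertical axis, starting at 50) of the H3K27ac region at the start site of each of the 9 genes, 1 point per condition list. Casp1 and Casp4 are lowest in Control, Il18 is high in both lists with IFNγ, and Pycard is lowest in IFNγ at 59.3.

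Casp4 was the member whose start site stood highest in IFNγ relative to Control. Its region (chr9:5307393-5313584, 6192 bp when merged) spans the start and the first part of the gene. It ranked at percentile 90.7 in Control, 98.5 in IFNγ, 97.7 with PJ34 and 99.5 with both agents, with fold enrichments of 33.0, 53.6, 48.6 and 64.1. All 3 treated lists were thus above Control. The difference of 7.78 points between IFNγ and Control exceeded that of 98.4% of the 3143 start-site regions within 5 points of it in Control. The difference of 7.02 points between PJ34 and Control exceeded that of 98.7% of such regions, and these comparisons share the Control list. On top of PJ34, IFNγ was accompanied by a further 1.77 points, more than in 91.8% of 2783 like-ranked regions. Many like-ranked regions near the top of a list have no room for such a rise, so these shares can run high. Over all start-site regions, these differences exceeded those of 94.1%, 87.5% and 80.6%, in the same order. The Casp4 peak measured 5115 bp in Control, 5475 bp after IFNγ, 6110 bp with PJ34 and 6133 bp with both agents.

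Casp1, which encodes the caspase that matures IL-1β and IL-18, had the same order of lists. Its start-site region (chr9:5297990-5301285) ranked at 94.7 in Control, 98.5 in IFNγ, 97.9 with PJ34 and 99.6 with both agents, and the fold enrichments were 41.5, 55.9, 49.4 and 66.1. The difference of 3.73 points between IFNγ and Control was above that of 95.3% of 3547 like-ranked regions, which have the same limit. It was above that of 86.0% of all 9430 start-site regions. Of the 3 genes whose 4 percentiles were nearest to those of Casp4, Casp1 was one, with a summed absolute difference of 4.23 points over the 4 lists. The other two, Gm49336 and Nupl1, have a single region in common (4.05 points).

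The third region of this locus that was present in both Control and IFNγ lay 35.1 kb from Casp4, at the start of Casp12, which encodes another inflammatory caspase. This region (chr9:5343983-5346062) ranked at 11.5 in Control, at 55.0 in IFNγ and at 75.3 in IFNγ+PJ34, and it had no peak in PJ34. The fold enrichments were 3.45, 6.66 and 15.9, and the peak widths 305 bp, 1035 bp and 2080 bp. The 43.5 points between IFNγ and Control were the largest upward difference among the 36 member regions found in both lists. The region is thus found weakly or not at all without IFNγ and in the upper part of both lists with it. The map of the caspase locus shows 3 blocks that widen or heighten from Control to IFNγ+PJ34.

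**Figure D2:**
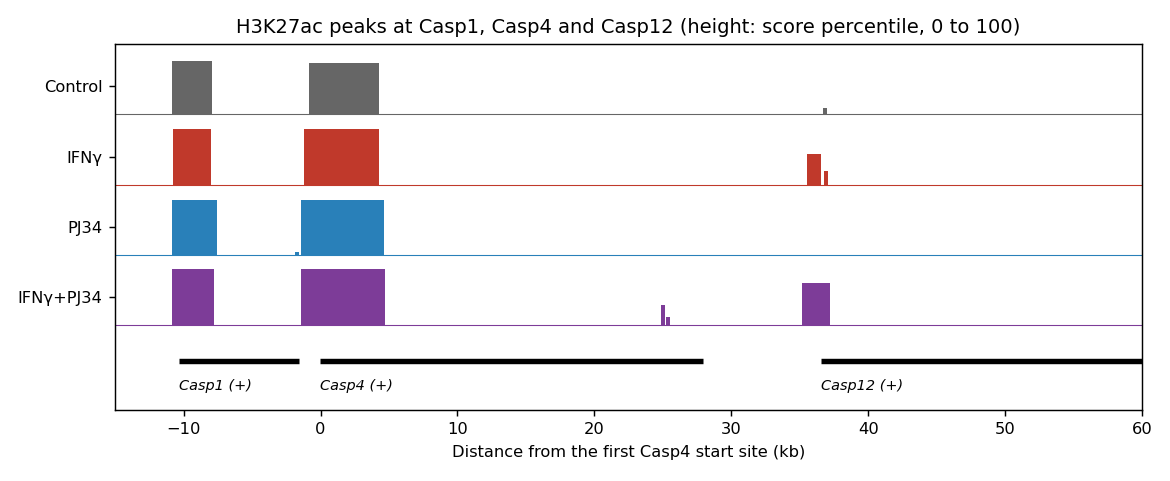
H3K27ac peaks around Casp1, Casp4 and Casp12, by distance from the Casp4 start site in kb (horizontal axis), 1 track per condition list. Block width is peak width and block height is the score percentile from 0 to 100, and black bars are the genes. The region at Casp12 is small in Control at 11.5, missing in PJ34 and tallest in IFNγ+PJ34 at 75.3.

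Several GAS matches lie in this locus, in a count over whole regions that was chosen after the windows around summits had been searched. The Casp4 start-site region holds 6 (0.969 per kb) and the Casp12 region 4 (1.92 per kb), against 0.291 per kb over all start-site regions of the series. The Casp1 region holds 1 (0.303 per kb). The letters GAAANNGAA and TGANTCA, described below, stood at 0.646 per kb each in the Casp4 region and 0.962 each in the Casp12 region. Over all start-site regions they stood at 0.343 and 0.250 per kb, so the higher density was not particular to GAS letters. The 200 bases around the Casp4 and Casp12 summits were 43.5% and 40.5% GC, beside a median of 63.5% in all start-site windows. The part of GC content was not tested. In the Casp12 region, 2 of the matches have the letters TTCTGGGAA and lie at -52 bp and 14 bp from the annotated start. The remaining regions of the caspase locus were weak. A region at percentile 5.78 was found in PJ34 alone, and regions at 35.5 and 15.6 inside Casp4 were found in IFNγ+PJ34 alone.

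Il18, the cytokine gene of the group, was the other member with higher start-site ranks in the lists with IFNγ. The region (chr9:50551347-50556678) also covers the start of Bco2, so the genes share it. It ranked at 87.4 in Control, 94.0 in IFNγ, 82.6 with PJ34 and 94.6 with both agents, with fold enrichments of 26.1, 35.2, 18.8 and 37.9. Both lists with IFNγ were above both lists without it. The difference with IFNγ was 6.65 points without PJ34 (above 95.2% of 2781 like-ranked regions) and 12.0 points with PJ34 (above 96.0% of 2255). By peak width the percentiles were 97.9, 98.9, 96.9 and 98.3, in which the lists with IFNγ were again the higher ones.

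Il18 had 13 regions within 50 kb, 6 of them in all 4 lists. An intergenic region 14.8 kb from an Il18 start site (chr9:50590058-50592164) had the same order as the start site, at 68.2 in Control, 75.4 in IFNγ, 60.9 with PJ34 and 84.4 with both agents. Its fold enrichment was 11.2 in Control, 11.2 in IFNγ, 7.77 with PJ34 and 23.3 with both agents, so the difference without PJ34 did not appear in fold. A region in an intron of Bco2, 20.8 kb away, went the other way without PJ34, at 67.3 in Control, 38.4 in IFNγ, 61.9 with PJ34 and 77.2 with both agents. A region in an exon of Bco2, 14.0 kb away, ranked at 19.9 in Control, 15.3 with PJ34 and 51.6 with both agents and was missing from IFNγ. The strongest region of the window, at the start of the neighbour Pts, stayed between 95.5 and 96.6. Distal regions near Il18 therefore did not share 1 order of lists.

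Nlrp3 encodes the sensor that responds to potassium efflux and membrane damage, and its start-site region was the strongest of the 9 in Control, IFNγ and PJ34. The region (chr11:59536262-59547261, 11000 bp when merged) ranked at 99.4 in Control, 99.5 in IFNγ, 99.6 with PJ34 and 98.2 with both agents. By score it was already near the top of the list without treatment. The fold enrichments were 75.1, 76.7, 69.3 and 34.6, so the value in IFNγ+PJ34 was less than the others although the rank by score hardly differed. Ranked by fold, the region was at 99.6 in IFNγ and 94.2 in IFNγ+PJ34. The log2 ratio of fold between these lists, -1.15, was lower than in all but 5.32% of start-site regions, whose median was -0.056. The genes with the most similar start-site percentiles were Med15, Rbbp6 and Ino80, with summed absolute differences of 0.313, 0.359 and 0.544 points over the 4 lists.

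**Figure D3:**
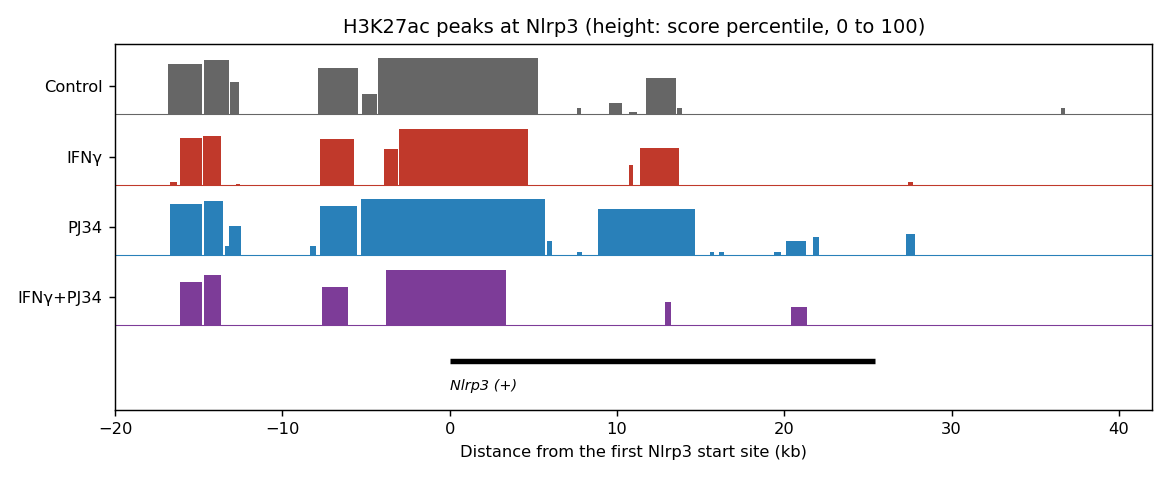
H3K27ac peaks around Nlrp3, by distance from its first start site in kb (horizontal axis), 1 track per condition list. Block width is peak width and block height is the score percentile from 0 to 100, and the black bar is the gene. The block over the start site is wide in each list, and the blocks downstream of it are widest and most numerous in PJ34.

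Nlrp3 had 18 regions, the most of the 9 genes, and 7 of them were in all 4 lists. The highest-ranked region other than the start site was intergenic, 13.2 kb upstream (chr11:59526835-59528355), at 96.6 in Control, 87.0 in IFNγ, 95.7 with PJ34 and 90.3 with both agents, with folds of 61.4, 25.2, 52.4 and 31.3. Both lists with IFNγ were below both lists without it. Its neighbour 14.8 kb upstream, in an intron of Zkscan17, ranked at 89.4 in Control, 83.2 in IFNγ, 90.0 with PJ34 and 77.2 with both agents and carries a GAS match at -47 bp from its summit. A region 12.5 kb upstream was at 57.0 in Control, 0.722 in IFNγ and 50.8 in PJ34 and was missing from IFNγ+PJ34. Its -56.3 points were the largest downward difference of any member region in the comparison of IFNγ with Control. The region 5.48 kb upstream ranked at 83.1, 80.4, 87.0 and 68.9. The Zkscan17 start site, 34.4 kb away, was at 72.8 in Control, 69.8 in IFNγ, 76.3 with PJ34 and 64.3 with both agents. A region 43.9 kb away in an intron of Zkscan17 was at 47.2 in Control, 4.54 in IFNγ, 32.8 with PJ34 and 41.0 with both agents. All 6 upstream regions present in both Control and IFNγ ranked lower in IFNγ, as did 13363 of the 21831 near-gene regions found in both lists. Of the 5 with a peak in both lists with PJ34, 4 ranked lower in IFNγ+PJ34 than in PJ34, and the one 43.9 kb away ranked 8.18 points higher. Among all near-gene regions in both of those lists, 12536 of 20642 ranked lower in IFNγ+PJ34.

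Inside Nlrp3, a region 7.72 kb downstream of a start site ranked at 64.0 in Control, 64.5 in IFNγ, 81.2 with PJ34 and 41.0 with both agents. Its widest peak measured 1766 bp in Control, 2290 bp in IFNγ, 5826 bp with PJ34 and 360 bp with both agents. Within 50 kb of Nlrp3, 6 regions were found in PJ34 alone, 5 inside the gene and 1 upstream, at percentiles from 5.78 to 32.8. The total length covered by peaks near Nlrp3 was 23.7 kb in Control, 18.5 kb in IFNγ, 29.5 kb with PJ34 and 14.5 kb with both agents. Nlrp3 had 1 region gained under IFNγ (in IFNγ, not in Control), 26.1 kb from a start site, at only 4.54 in IFNγ and 38.2 in PJ34.

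Pycard encodes ASC, the adaptor that links a sensor to caspase-1, and its start-site region had its lowest level in IFNγ. The region (chr7:127990881-127994310) covers most of the short gene. It ranked at 83.9 in Control, 59.3 in IFNγ, 77.1 with PJ34 and 85.6 with both agents, with fold enrichments of 24.1, 7.51, 15.3 and 22.1. Control and IFNγ+PJ34 were close and IFNγ was apart from them. The difference of -24.6 points between IFNγ and Control was below that of all but 1.47% of 2378 like-ranked regions, and the 26.3 points between IFNγ+PJ34 and IFNγ were above 98.3% of 661. These comparisons share the IFNγ list. By peak width the region did not rank lower in IFNγ, with percentiles of 83.6 in Control, 86.8 in IFNγ, 95.3 with PJ34 and 89.9 with both agents.

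Upstream of Pycard, 2.39 kb from its start, lay the region (chr7:127996259-127996877) whose sequence is printed above. It was found in IFNγ, at percentile 34.3 and 4.42-fold, and in IFNγ+PJ34, at 35.5 and 4.81-fold, and in neither list without IFNγ. Its summit lies on the GAS match TTCTGGGAA, and the region holds 3 GAS matches (4.85 per kb) in 619 bp. A region 25.6 kb from Pycard had the same presence, at 38.4 in IFNγ and 55.4 in IFNγ+PJ34, and no GAS match. These were the only 2 of the 78 regions found in both lists with IFNγ and in neither without, a pattern held by 2.14% of all near-gene regions. Next to them a region 24.7 kb away was found in IFNγ at 44.0 and in PJ34 at 15.3. Within 5 kb of the start, 4 regions were found in PJ34 alone, at 15.3 to 46.0, 2 of them in exons of Pycard and 2 beyond the end of the gene.

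Nlrc4 and the Naip genes form the receptor system for flagellin and secretion system proteins, and their start sites ranked lower in IFNγ than in Control, though at Naip2 only by -0.269 points. The Nlrc4 region (chr17:74458061-74459599) was at 88.1 in Control, 78.2 in IFNγ, 84.1 with PJ34 and 75.3 with both agents, with fold enrichments of 33.0, 15.3, 18.0 and 13.5. Both lists with IFNγ were below both lists without it. The difference of -9.93 points between IFNγ and Control was below that of all but 9.28% of 2857 like-ranked regions. By width the percentiles were 75.0, 77.6, 77.3 and 69.3, so the order of lists was another one.

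Nlrc4 had 11 regions, 3 of them in all 4 lists. In the Control list 9 were present, against 4 in IFNγ, 7 with PJ34 and 5 with both agents. Of the 9 in Control 5 were absent from IFNγ, beside 29.7% of all near-gene Control regions. Introns of Nlrc4 held regions 3.59, 4.29, 5.07, 7.86 and 16.7 kb from a start site that were present in Control, and of these only the first had a peak in IFNγ (50.7 in Control, 44.0 in IFNγ, 58.9 in PJ34). The regions 5.07 and 7.86 kb away were weak in Control too, at 3.96 and 11.5. The region 16.7 kb away was at 57.0 in Control and 38.4 in IFNγ+PJ34 and missing from IFNγ and PJ34, and so was one 32.8 kb away in an intron of Slc30a6 (54.8 and 47.3). An intergenic region 40.0 kb upstream of Nlrc4 ranked at 61.3 in Control, 73.9 in IFNγ, 76.9 with PJ34 and 31.8 with both agents. The highest-ranked PJ34-only region of all 9 genes lay 31.6 kb from Nlrc4 at 54.8, next to the start-site region of Yipf4 (88.6, 90.0, 93.3 and 81.8).

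At Naip2, whose product senses the rod protein of secretion systems, the start-site region (chr13:100201159-100202706) was at 82.1 in Control, 81.8 in IFNγ, 79.6 with PJ34 and 76.4 with both agents. The fold enrichments were 24.6, 18.1, 17.6 and 16.6, the Control value being above the treated ones. At Naip5, a flagellin receptor gene, the region (chr13:100246899-100247660) was at 74.3, 59.3, 60.9 and 71.7, with folds of 16.8, 7.44, 5.66 and 13.6. Control and IFNγ+PJ34 were the higher 2 lists there, as at Pycard. These genes are related copies, and the authors kept uniquely mapped reads, so signal that maps to both copies is not in the lists. How much signal this removed was not measured. Both start-site regions hold a GAS match with the letters TTCACAGAA, and the 69 bases around it are identical between the copies at 66 positions and different at 3.

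Inside Naip2, a region 44.4 kb from a start site ranked at 58.0 in Control, 56.3 in IFNγ, 25.3 with PJ34 and 0.523 with both agents. A region 43.1 kb away was at 69.4 in Control and 5.78 in PJ34, and it had no peak in either list with IFNγ. The regions 14.0 and 13.0 kb away were found in Control (52.1 and 53.6) and IFNγ (34.3 and 24.3) and in neither list with PJ34. All 4 of these intragenic regions had their highest rank in Control. The 1 region gained under IFNγ, 0.961 kb before the Naip2 start, was at 17.0 in IFNγ alone and is within 50 kb of both genes.

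Gsdmd encodes the pore protein of pyroptosis, and its start-site region ranked lower in both lists with IFNγ. The region (chr15:75861592-75863933) was at 94.8 in Control, 90.5 in IFNγ, 95.7 with PJ34 and 87.4 with both agents. Fold enrichments were 54.4 and 52.5 in Control and PJ34, against 22.6 in IFNγ and 18.2 in IFNγ+PJ34. The difference of -4.34 points between IFNγ and Control was lower than in all but 18.5% of 3551 like-ranked regions. The log2 ratio of fold between the same lists, -1.27, was lower than in all but 8.73% of start-site regions, whose median was -0.42. By peak width the order was another one, with percentiles of 75.9, 83.5, 77.9 and 80.2.

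Gsdmd had 11 regions, 6 of them in all 4 lists. The intergenic region 3.60 kb upstream of the gene (chr15:75856298-75858727) ranked at 91.7 in Control, 79.0 in IFNγ, 88.2 with PJ34 and 93.2 with both agents. Its fold enrichments were 30.9, 16.4, 30.5 and 36.9, so it was lowest in IFNγ and highest in IFNγ+PJ34. All 6 regions near Gsdmd that were found in both Control and IFNγ ranked lower in IFNγ, with a median difference of -8.52 points, where 38.8% of all near-gene regions ranked higher. They included a region in an intron of Zc3h3 29.0 kb away (65.2 in Control, 24.3 in IFNγ) and the Mroh6 start site (68.2 and 29.9). Gsdmd had 3 of the 7 member regions found in IFNγ+PJ34 alone, the highest at 53.0, and 0 gained under IFNγ.

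Over all 9 genes, 30 of 78 regions were in all 4 lists, which is 38.5% (95% Clopper-Pearson interval 27.7 to 50.2) beside 43.0% of all near-gene regions. These intervals cover counting error only and treat regions as independent. Presence followed the position of the region. Of the 10 regions at a member's start site 9 were in all 4 lists, of 13 at another gene's start site also 9, and of 55 away from any start site 12 (21.8%). Over the series, 81.6% of start-site regions and 26.9% of the others were in all 4 lists. Of the 48 regions missing from some list, 35 (72.9%) never passed the 50th percentile, beside 80.5% of the 24591 such regions near all genes. Of those in a single list, 6 were in Control (7.69% beside 11.4% of all near-gene regions, at most at 11.5), 2 in IFNγ (2.56% beside 3.76%, at most at 17.0) and 7 in IFNγ+PJ34 (8.97% beside 9.18%, at most at 53.0). A region inside Nlrp3 was the only one in both lists with PJ34 and neither without, at 25.3 and 31.8. The map of the 78 regions shows this contrast between the start sites and the regions around them.

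**Figure D4:**
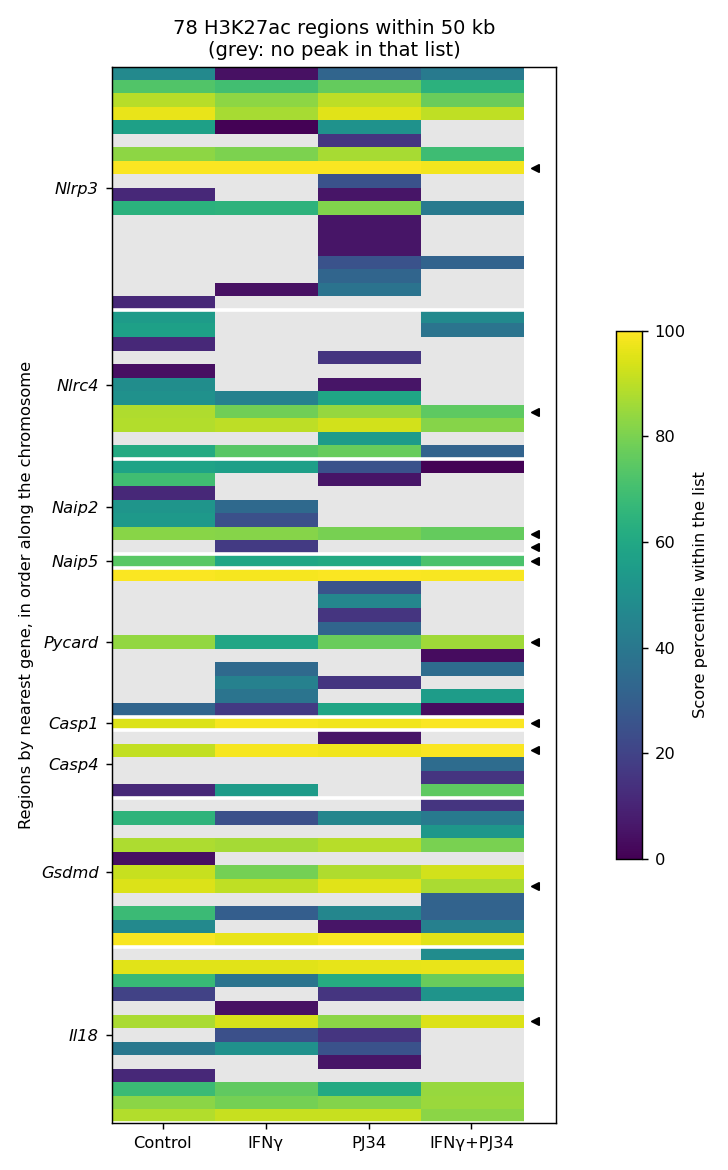
The 78 H3K27ac regions (rows, grouped by nearest gene and in order along the chromosome) in the 4 condition lists (columns), coloured by score percentile from 0 to 100, with grey where a list has no peak and arrowheads at start-site regions of the 9 genes. Start-site rows are bright in all 4 columns save 1 at Naip2, and most grey cells lie in rows with no start site.

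Between IFNγ and Control, 7 of 43 IFNγ regions (16.3%, interval 6.81 to 30.7) were absent from Control, beside 15.9% of all near-gene regions of the IFNγ list. Of the Control regions 13 of 49 (26.5%, interval 14.9 to 41.1) were absent from IFNγ, beside 29.7%. Among the 36 regions in both lists, 3 ranked at least 10 points higher in IFNγ (background 13.4%) and 11 at least 10 points lower (background 27.4%). The median difference was -2.89 points (interval -9.93 to 0.0761), and that of all near-gene regions was -2.22. The upward 3 were the Casp12 start site, the region 40.0 kb from Nlrc4 (12.6 points) and a region near Il18 (10.2 points). The lowest differences were -56.3 and -42.7 points at 12.5 and 43.9 kb from Nlrp3 and -40.9 points at 29.0 kb from Gsdmd. A gained region lay near 5 of the 9 genes, with background 23.4% of protein-coding genes. These were Nlrp3 (1 region), Pycard (3), Il18 (2), and Naip2 and Naip5 (1 that they share). The 9 genes have more regions than most genes, so a gained region near one of them is not set against genes of equal number of regions. None of these 7 gained regions passed the 50th percentile of the IFNγ list, the highest being at 44.0 near Pycard.

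Between PJ34 and Control, 18 of 56 PJ34 regions (32.1%, interval 20.3 to 46.0) were absent from Control, beside 19.1% over the series. Of these 18, 14 were found in PJ34 alone, 17.9% of the 78 regions beside 8.46% of all near-gene regions. They lay near Nlrp3 (6), Pycard (4), Nlrc4 (2), Casp4 (1) and Il18 (1), and 0 lay at a start site. Their percentiles ran from 5.78 to 54.8 with a median of 15.3, so most were weak peaks. Without Nlrp3 and Pycard the share absent from Control was 16.1%, and it was 6.90% when each list was limited to its higher-scoring 50%. With peaks up to 1 kb apart joined into 1 region it was 8.11%, beside 10.4% of all near-gene regions joined the same way. In the other direction 11 of 49 Control regions were absent from PJ34 (background 23.8%). Of 38 regions in both lists, 3 ranked at least 10 points higher in PJ34 (background 16.9%) and 9 at least 10 points lower (background 18.8%). The highest differences were 26.4 points at a region 48.6 kb from Pycard, 17.3 points inside Nlrp3 and 15.5 points 40.0 kb from Nlrc4, and the lowest were -63.6 inside Naip2, -43.3 inside Nlrc4 and -41.4 at the start of Naprt near Gsdmd. The median was -1.94 points, against 0.315 in all near-gene regions, and ranked by width it was 1.50.

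With IFNγ present, PJ34 was accompanied by differences of either sign. Of 45 regions in IFNγ+PJ34, 12 were absent from IFNγ (background 25.2%), and of 43 in IFNγ, 10 were absent from IFNγ+PJ34 (background 20.5%). Among 33 regions in both, 8 ranked at least 10 points higher in IFNγ+PJ34 (background 24.1%) and 5 at least 10 points lower (background 20.9%), with a median of 0.688 points. The largest upward differences were 38.8 points in the Bco2 intron near Il18, 36.5 points at a Zkscan17 intron 43.9 kb from Nlrp3 and 26.3 points at the Pycard start site. The largest downward ones were -55.8 inside Naip2, -42.2 at the region 40.0 kb from Nlrc4 and -23.5 inside Nlrp3. The shares of member regions were near the background in each direction.

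Between IFNγ+PJ34 and PJ34, which is the comparison of IFNγ with PJ34 present in both, 12 of 45 regions were absent from PJ34 (background 25.1%). In turn 23 of 56 PJ34 regions (41.1%, interval 28.1 to 55.0) were absent from IFNγ+PJ34, beside 29.4%, and 14 of these 23 are the PJ34-only regions already described. Of 33 regions in both, 6 ranked at least 10 points higher in IFNγ+PJ34 (background 20.0%) and 9 at least 10 points lower (background 30.6%). The highest differences were 37.8 points at the start of Naprt, 36.3 points in a Bco2 exon and 23.5 points 14.8 kb from Il18. The lowest were -55.4 points 48.6 kb from Pycard, -45.1 points 40.0 kb from Nlrc4 and -40.2 points inside Nlrp3.

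The plot of IFNγ differences without and with PJ34 shows the 9 start sites among the 9238 start-site regions, chosen as above, that were found in all 4 lists. Casp1, Casp4 and Il18 were higher with IFNγ in both settings. Nlrc4, Gsdmd and Naip2 were lower in both, and Nlrp3 differed by 0.0761 points without PJ34 and -1.43 with it. Pycard and Naip5 were lower with IFNγ without PJ34 (-24.6 and -14.9 points) and higher with it (8.47 and 10.8 points).

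**Figure D5:**
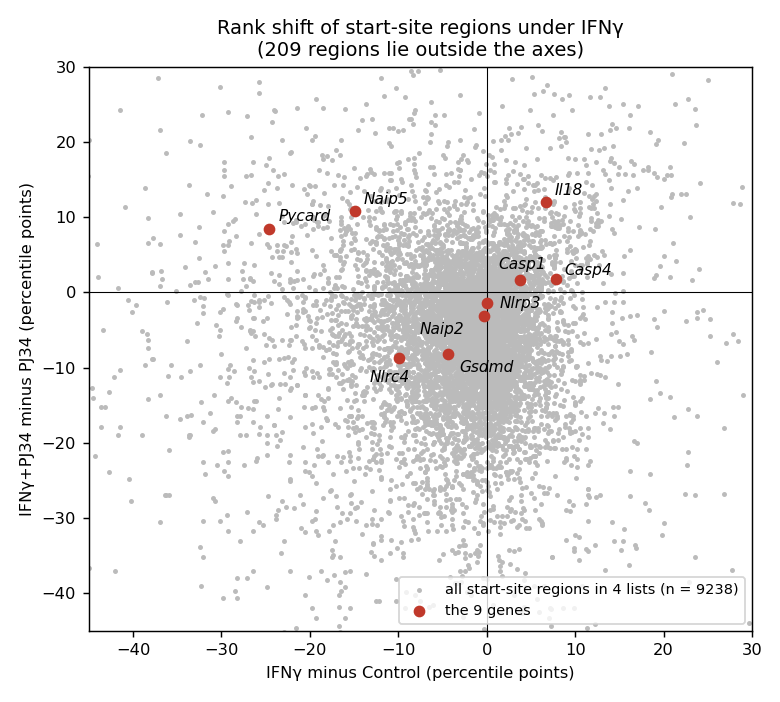
Difference in score percentile of start-site regions between lists with and without IFNγ, without PJ34 (horizontal axis, IFNγ minus Control) and with PJ34 (vertical axis, IFNγ+PJ34 minus PJ34), in percentile points from -45 to 30. Red points are the 9 genes and grey points the 9238 start-site regions (for each gene its highest-ranked, each region once) found in all 4 lists, 209 of which lie outside the axes. Il18 and Casp4 sit to the upper right, and Pycard and Naip5 to the upper left.

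Of 22 other genes of these pathways (sensors, regulators, gasdermins, cytokines and guanylate-binding proteins), 18 had a start-site region in all 4 lists. Naip1 had one in Control alone, at 11.5, and Aim2, Nlrp6 and Nlrp12 had none. Of the 18, 9 ranked higher in IFNγ than in Control, beside 36.6% of the 9430 start-site regions described above. By at least 10 points, 4 ranked higher and 3 lower. Such differences were found in 13.4% and 27.4% of all near-gene regions, most of which lie away from a start site. Among the 9430 start-site regions they were less frequent, since 94.1% had a difference below 7.78 points and 15.2% one below -9.93 points. The median was -1.08 points, against -1.43 over the 9430 start-site regions. The genes named next were chosen after their values were seen. The 4 higher ones were Gbp2 (85.4 in Control, 97.2 in IFNγ) and Gbp5 (80.2 and 96.5), which encode interferon-induced GTPases that promote inflammasome assembly, Il18bp (85.9 and 96.1), the secreted inhibitor of IL-18, and Il1a (32.5 and 66.4). The 3 lower ones were Naip6, Gsdme and P2rx7. At Gbp2, Gbp5 and Il18bp the lists with both agents stood at 99.2, 98.4 and 97.7, and those with PJ34 alone at 89.3, 80.9 and 81.8, so both lists with IFNγ were above both lists without it, as at Il18. Il1b, the other cytokine that caspase-1 matures, was at 82.4 in Control, 74.4 in IFNγ, 82.8 with PJ34 and 35.5 with both agents. A region gained under IFNγ lay near 11 of the 22 genes (background 23.4%), none in the upper 50% of the list, and one found in Control but not in IFNγ near 16 (background 41.7%). The number of regions per gene was not matched in either count.

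In the 200 bases around the summit, GAS letters were found in 7 windows (8.97%) beside 5.53% of all near-gene windows. The interferon-stimulated response element, searched as GAAANNGAA on both strands, was in 6 (7.69% beside 5.98%). The AP-1 motif TGANTCA was in 4 (5.13% beside 4.70%) and the PU.1 motif GAGGAAGT, searched on both strands, in 2 (2.56% beside 1.09%). Of the 23 windows at a start site, 3 held GAS letters (3.94% over all start-site windows) and 3 the response element (3.85%). The 7 windows with GAS letters were at the start sites of Naip2, Naip5 and Gsdmd, in a region near each of Nlrp3 and Nlrc4, and in 2 near Pycard. The median GC content was 46.0% in the windows of the 9 genes, 48.5% in all near-gene windows and 63.5% in all start-site windows. The 250 bases upstream of RefSeq start sites (GRCm38.p6) could be read for 8 of the 9 genes, Gsdmd being the exception. They held 0 GAS and 0 ISRE matches, where 7.02% and 7.13% of all RefSeq promoters have one. Those zeros hold for the RefSeq starts only. From the annotated start sites used elsewhere here, Gsdmd has ISRE letters at -149 bp. Naip2 has ISRE letters at -30 bp and GAS letters at -39 bp, each from the nearest of its start sites. Over whole start-site regions, Nlrp3 had 3 GAS matches (0.273 per kb), Il18 2 (0.375 per kb), Gsdmd, Naip2 and Naip5 1 each, and Nlrc4 and Pycard 0.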

How the data were processed

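H3K27ac ChIP-seq was done in BMDMs, 2 replicates in each of 4 conditions, with matched inputs. Per the methods, the authors used Bowtie to align reads to mm10, discarded reads that did not map uniquely, called relaxed peaks per replicate with MACS against input, and kept peaks called in both replicates. Each list is deposited with the first ChIP replicate and was taken to be that joint list. The deposited lists give each peak a score (10 to 1000), a fold enrichment (a ratio), −log10 p and −log10 q values, and a summit offset, another number the authors deposited. The score is linear in −log10 p (100.0% of its variance in each list), and the lowest −log10 p was 2.03.

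Peaks overlapping by at least 1 bp were merged across lists with Python 3.11.15, numpy 2.4.6, pandas 2.3.3 and scipy 1.17.1, and figures were drawn with matplotlib 3.10.9. A merged region takes, in each list, the values of its highest-scoring peak. Percentiles are mid-ranks within a list, with many ties at low scores. Regions were linked by their nearest edge to start sites of protein-coding genes (GENCODE M21, basic) within 50 kb, and counted as start-site regions within 1 kb. All peaks lay within the chromosomes of GRCm38. A region was called where it was absent from 1 of the lists compared, or where its percentile differed by at least 10 points. The start-site regions compared with the members' are 1 for each gene, its highest-ranked, each region once. Like-ranked regions are those within 5 points in the list subtracted. Shares carry exact Clopper-Pearson 95% intervals, and medians carry binomial order-statistic intervals. The steps were tested on simulated lists.

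Genes named were all 9 members with their start-site region and highest-ranked other region, the 3 largest differences each way, the highest region of each presence pattern, and the nearest genes to Nlrp3 and Casp4 in percentile. The members and lists were chosen with earlier results of these data known. Other distances, merging rules, thresholds and ranking measures were tried as alternatives. One neighbouring region that this rule names is not reported here. Input samples and single replicates have no list of their own and were not analysed here.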

Additional observations from a re-analysis of the deposited data

Results flagged for a closer look

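In 3 regions the difference with IFNγ had opposite signs without and with PJ34, by 10 points or more each way, and none of these was tested since each condition has 1 list. The share of all near-gene regions that cross in this way is not given, so the 3 have no background. Single differences of that size with IFNγ were frequent, at 13.4% to 30.6% of near-gene regions by comparison and direction. The Naip5 start-site region was at 74.3 in Control and 59.3 in IFNγ, but at 60.9 in PJ34 and 71.7 in IFNγ+PJ34, so the differences lie 25.7 points apart. The region in a Bco2 intron 20.8 kb from Il18 went from 67.3 to 38.4 without PJ34 and from 61.9 to 77.2 with it, which is 44.2 points apart. The intergenic region 40.0 kb from Nlrc4 went the opposite way, from 61.3 to 73.9 without PJ34 and from 76.9 to 31.8 with it (-57.7 points). Crossed presence was also seen. In Control and IFNγ+PJ34 alone 2 regions were found, both near Nlrc4 (2.56% of the 78 regions, beside 3.28% of all near-gene regions). In IFNγ and PJ34 alone 3 were found, near Nlrp3, Pycard and Il18 (3.85% beside 2.41%).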

How the results depend on the processing

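The 10 counts, shares and medians over the 78 regions were recomputed under 103 alternatives (distance, merging, thresholds, list size, ranking measure, genes left out). Of these, 92 stayed within the interval of the value reported (for the count of genes, within 1.5 times) and 11 moved out of it. Of 39 recomputed medians, 4 changed sign. That of PJ34 against Control went from -1.94 to 1.50 points by width and 0.400 in the higher-scoring 50% of the lists, and that of IFNγ+PJ34 against IFNγ from 0.688 to -0.726 by fold and -0.0948 by width. The intervals of both reported medians include 0. In the higher-scoring 50% of each list, the share in all 4 lists was 52.4%, the share of PJ34 regions absent from Control 6.90%, and 3 genes had a region gained under IFNγ. Within 10 kb, 3 genes had one as well, and 7.14% of IFNγ+PJ34 regions were absent from IFNγ. Without Naip2 and Naip5, 3 genes had one. With peaks up to 1 kb apart joined, the share in all 4 lists was 57.1% (57.9% of all near-gene regions), the share of PJ34 regions absent from Control 8.11% (10.4%), and 3 genes had a gained region. Without Nlrp3 and Pycard, a choice made after the data were seen, 16.1% of PJ34 regions were absent from Control. The cause of these moves was not tested, save that the 10 kb, joined and left-out settings hold fewer regions or genes. Start-site regions alone were also added after the data were seen. No paired analysis was possible because the replicates of a condition were joined in 1 list. Leaving out a replicate was not possible either. Unknown depth limits every call of absence, and low scores hold many ties.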
